A study of Homo sapiens with 6 samples.

Results

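The chaperonin TRiC/CCT is built from the products of 8 genes, TCP1, CCT2, CCT3, CCT4, CCT5, CCT6A, CCT7 and CCT8, and all 8 were measured here in HEK293 cells, a line derived from human embryonic kidney. The genes were taken by their symbols, which are 8 of the 24177 genes in the assemblies of the single libraries and name 8 of the 117001 merged loci in the table of pooled values. Cells were grown at 37°C, and those of the heat shock group (n = 3) were held in a tube for 30 minutes in a water bath at 45°C, a treatment that those of the control group (n = 3) did not receive. Total RNA depleted of ribosomal RNA was sequenced from each. The labels do not say whether the 3 libraries of a group came from separate cultures, so p-values measure the spread between these libraries, which may be technical.

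TRiC/CCT is a barrel of double rings in the cytosol, and each ring holds every subunit in a fixed order. It closes over newly made proteins and uses ATP to fold them, actin and tubulin being the best known of its clients, with prefoldin handing over unfolded chains. The subunits share an ancestor but differ in how they bind ATP and substrate, and an assembled ring needs all of them, so the proportions of the subunit messages are of interest beside their levels.

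No subunit gene passed the test between heat shock and control, the 8 genes varied together from library to library, and once the factor common to the abundant genes of a library had been divided out, 7 of the 8 lay at levels that overlapped between the groups. CCT4, which had the highest level of the 8 in every library, lay higher in all 3 heat shock libraries than in all 3 controls on that scale, by a difference that did not pass the adjusted test.

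Values of single libraries are given throughout in the order of replicates 1, 2 and 3 of each group. They are FPKM, fragments divided by transcript length and by the number of fragments mapped in the library, as estimated by Cufflinks in each library. The FPKM of a gene is the sum over its annotated transcripts and the transcripts that Cufflinks assembled and grouped with it. FPKM hold no counts, and the ratio of coverage to FPKM places the depth of the libraries between 1 and 2.03 times that of the shallowest, control replicate 3. The median-of-ratios factor over 996 abundant genes, those that exceeded 10 FPKM in each of the 6 libraries, the 8 subunits among them, was 0.936, 0.434 and 0.956 in the controls but 2.13, 2.31 and 0.487 in the heat shock libraries. Heat shock replicate 3 thus stood nearest to control replicate 2, and far below the other heat shock libraries. The libraries also differed in make-up. Unannotated transcripts that Cufflinks assembled numbered 163715, 220641 and 62478 in the controls and 28760, 42123 and 175544 in the heat shock libraries. They were most numerous in control replicate 2 and heat shock replicate 3. Whether this difference bears on the factors was not tested. The HEK293 markers KRT8, KRT18, VIM, NEFM, NEFL, LIN28B and PAX2 were above 0 in every library, from PAX2 at 0.320 to 4.26 FPKM to VIM at 85.3 to 929 FPKM. Among markers of other cell types, ALB of liver did not exceed 0.0808 FPKM, PTPRC of leukocytes 0.344 FPKM and PECAM1 of endothelium 0.883 FPKM. MYH6 of heart did not exceed 2.21 FPKM, GFAP of glia 3.48 FPKM and COL1A1 of fibroblasts 4.16 FPKM. PECAM1, MYH6, GFAP and COL1A1 were also above 0 in every library, so that trait did not set the HEK293 markers apart. COL1A1, at 3.23 FPKM or more, exceeded PAX2 in every library but heat shock replicate 3.

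The heat-inducible chaperone genes checked the treatment. DNAJB1, a co-chaperone of HSP70, had 7.32, 4.84 and 9.18 FPKM in the controls and 120.9, 116 and 34.0 FPKM after heat shock, and HSPA1B, an inducible HSP70, had 8.64, 6.59 and 9.55 FPKM and 86.5, 99.95 and 22.9 FPKM. Both genes were higher in every heat shock library than in every control, replicate 3 included. HSPA1A is a near-identical copy of HSPA1B, so how reads were divided between them is uncertain. Their adjusted p-values were nevertheless 0.708 each (limma with Benjamini-Hochberg adjustment), with log2 differences of 3.33 (SE 0.84) and 2.70 (SE 0.84).

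CCT4 encodes the delta subunit (ENSG00000115484, chromosome 2, 62095262 to 62115806, minus strand, on hg19). It had 149.7, 60.7 and 145.5 FPKM in the controls and 370.9, 637.6 and 81.8 FPKM after heat shock. CCT7, the eta subunit (ENSG00000135624, chromosome 2, 73461364 to 73480150, plus strand), had 102.2, 51.0 and 112.7 FPKM in the controls and 244.5, 278.2 and 64.9 FPKM after heat shock. For both genes heat shock replicates 1 and 2 were the highest of the 6 libraries, heat shock replicate 3 fell among the controls, and the groups overlapped.

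CCT8, the theta subunit (ENSG00000156261, chromosome 21, 30428648 to 30446010, minus strand), had 78.98, 33.7 and 78.6 FPKM in the controls and 170.3, 198.9 and 38.2 FPKM after heat shock. CCT6A, the zeta subunit (ENSG00000146731, chromosome 7, 56119378 to 56131682, plus strand), had 54.1, 47.2 and 55.3 FPKM in the controls and 129.1, 143.8 and 26.5 FPKM after heat shock. TCP1, the alpha subunit and the gene after which the complex was named (ENSG00000120438, chromosome 6, 160199530 to 160210735, minus strand), had 51.6, 22.8 and 54.1 FPKM in the controls and 120.3, 125.5 and 26.1 FPKM after heat shock. For these 3 genes too, heat shock replicates 1 and 2 were the highest and control replicate 2 was the lowest control. Heat shock replicate 3 lay among the controls for CCT8 and TCP1 and below all of them for CCT6A.

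CCT3, the gamma subunit (ENSG00000163468, chromosome 1, 156278752 to 156308206, minus strand), had 52.7, 31.5 and 42.5 FPKM in the controls and 97.7, 110.1 and 24.2 FPKM after heat shock. CCT5, the epsilon subunit (ENSG00000150753, chromosome 5, 10250282 to 10266501, plus strand), had 26.4, 14.7 and 36.7 FPKM in the controls and 56.9, 67.9 and 13.7 FPKM after heat shock. CCT2, the beta subunit (ENSG00000166226, chromosome 12, 69979208 to 69995357, plus strand), had the lowest values of the 8, with 16.7, 11.9 and 11.9 FPKM in the controls and 30.5, 32.9 and 12.7 FPKM after heat shock. In heat shock replicate 3, CCT3 and CCT5 lay below every control and CCT2 lay within the controls. Heat shock replicates 1 and 2 were the 2 highest libraries for 8 of 8 genes, and control replicate 2 and heat shock replicate 3 were the 2 lowest for 7 of 8.

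**Figure D1:**
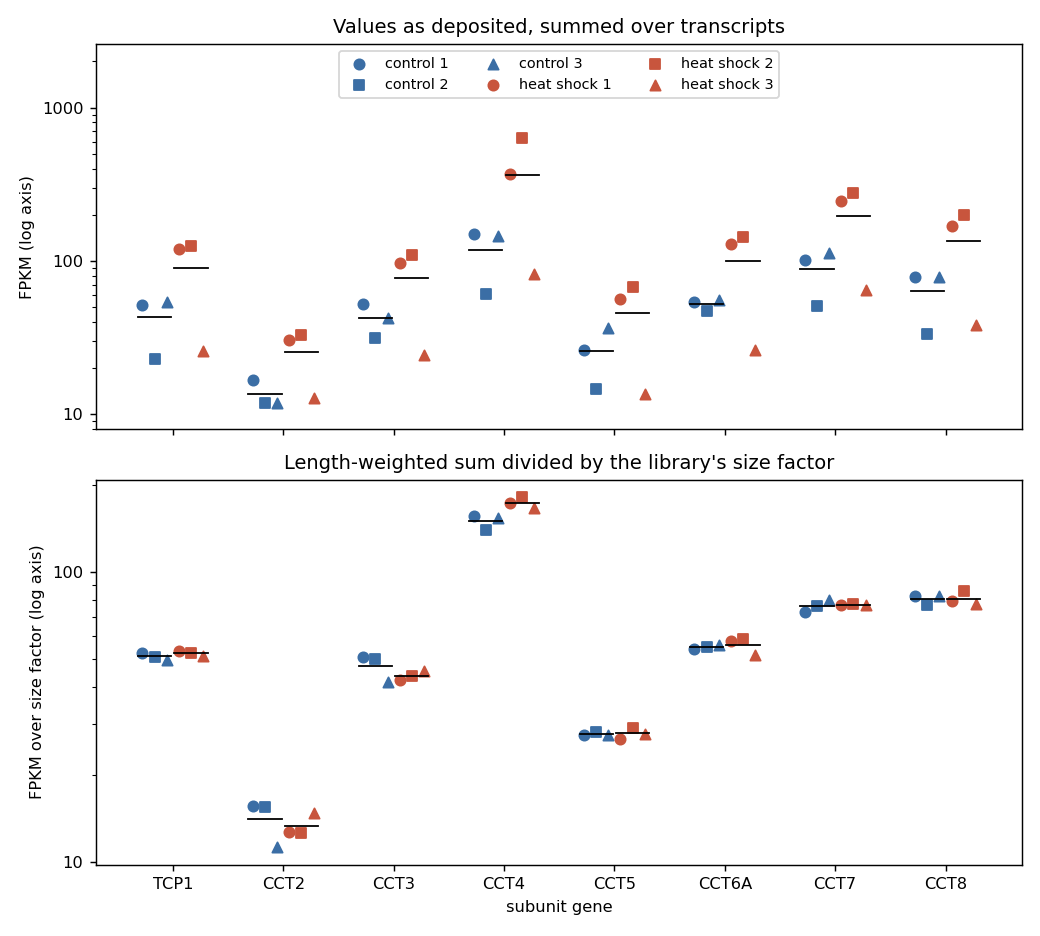
The level of each subunit gene in the 6 libraries (log axes), with the 3 controls in blue, the 3 heat shock libraries in red and a black line at the mean of each group. The upper panel gives FPKM as deposited, where heat shock replicates 1 and 2 lie highest for all 8 genes, and the lower panel gives the length-weighted sum divided by the size factor of the library, where only CCT4 has all heat shock libraries above all controls.

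In the fit across all genes, none of the 8 subunits was called at an adjusted p under 0.05 and more than 2-fold (0 of 8), where 0.0228% of the 13130 genes tested were called. At an unadjusted p under 0.05 the count was also 0 of 8, against 3.84% of the genes tested. No subunit had every heat shock library above every control, as 3.8% of all genes had, or below, as 2.26% had. The log2 differences, on the log2(FPKM + 1) scale and as heat shock minus control, were all above 0, as were 72.9% of all differences. They ran from 0.60 (SE 0.95) for CCT6A to 1.28 (SE 1.01) for CCT4, with a median of 0.82 beside a median of 0.45 over all genes tested. Adjusted p-values were between 0.708 and 0.744 (limma, Benjamini-Hochberg adjustment). The 95% intervals were wide, with folds from 0.365 to 10.97, so differences of either sign remained within them.

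Heat shock replicate 3 decided how close the genes came to the threshold. Without it the log2 differences were 1.19 to 2.14, unadjusted p-values from limma were 0.0108 to 0.0451 and adjusted p-values were 0.0767 to 0.0949, so that 8 of 8 passed the unadjusted threshold in a fit where 40.2% of all genes did so in the same direction. The count of subunits called was 0 of 8 there too, where 0.0457% of the genes tested were called. In bulk RNA, fewer cells and less RNA per cell cannot be told apart, and a factor common to all genes of a library cannot be told apart from a general change of message levels.

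After division by the size factor of each library, the subunits drew together. TCP1 stood at 55.1, 52.7 and 56.6 in the controls and at 56.5, 54.3 and 53.6 after heat shock, in FPKM over the size factor. CCT8 stood at 84.3, 77.6 and 82.2 in the controls and at 80.0, 86.0 and 78.4 after heat shock. Their log2 differences were 0.00 (SE 0.09) for both, with 95% intervals from -0.22 to 0.22. CCT7 was also tight, with a log2 difference of 0.09 (SE 0.09), while CCT3, CCT5 and CCT6A had differences of -0.24, -0.24 and -0.27 and CCT2 of -0.06. The difference was above 0 for 4 of 8, beside 28% of all genes, and the median over the 8 genes was -0.03, beside -0.21 over all genes tested. The size factor centres the abundant genes, the 8 subunits among them, near a log2 difference of 0. The figures over all genes include weaker ones, and the share over genes of like abundance was not computed. This contrast therefore does not set the subunits apart. CCT4 alone had every heat shock library above every control, 1 of 8 where 1.96% of all genes did so, and 0 of 8 lay wholly below, where 5.42% did. No subunit was called (0 of 8), and no gene of the 13130 was, 0% of those tested. At an unadjusted p under 0.05 (limma) the count was 0 of 8 beside 3.31% of all genes.

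FPKM are per length, so a short assembled transcript adds as much to a plain sum as a full-length one with the same density of fragments. The transcripts were therefore also summed by length, multiplying each FPKM by the length of its transcript and dividing the sum by the longest annotated transcript of the gene, with size factors of its own over 903 genes. This sum was added once the values had been seen. The highest library of a gene exceeded the lowest by 2.77 to 10.5 times in FPKM as deposited and by 4.34 to 6.96 times in the length-weighted sum. After division by the size factors the span was 1.07 to 2.20 times for FPKM and 1.07 to 1.38 times for the length-weighted sum.

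On the length-weighted scale over its size factor, TCP1 stood at 52.5, 51.0 and 49.9 in the controls and at 53.5, 52.5 and 51.3 after heat shock. CCT7 stood at 72.6, 76.1 and 80.3 in the controls and at 76.997, 77.7 and 76.9 after heat shock, and CCT8 at 82.4, 77.1 and 82.9 and at 79.4, 86.0 and 77.4. CCT6A stood at 54.3, 55.1 and 55.8 in the controls and at 57.7, 58.8 and 51.7 after heat shock. The groups overlapped for each of these genes, and their log2 differences ran from 0.00 to 0.03. CCT5 stood at 27.5, 28.1 and 27.3 in the controls and at 26.5, 29.1 and 27.7 after heat shock. CCT3 stood at 51.0, 49.9 and 41.6 in the controls and at 42.3, 43.8 and 45.6 after heat shock, and CCT2 at 15.6, 15.5 and 11.3 and at 12.7, 12.6 and 14.7. For CCT3 and CCT2 control replicate 3 stood below the other controls, and the log2 differences were -0.11 (SE 0.10) and -0.06 (SE 0.15). The difference was above 0 for 6 of 8 subunits, CCT4 included, beside 23.3% of all genes, and no subunit lay wholly below the controls, as 5.76% of all genes did. These size factors too were set on abundant genes, so this contrast does not set the subunits apart either. The 95% intervals of the 8 genes reached from 0.730-fold for CCT2 to 1.30-fold for CCT4.

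CCT4 stood at 156.2, 139.1 and 153.4 in the controls and at 172.9, 181.1 and 165.8 after heat shock on that scale. All 3 heat shock libraries lay above all 3 controls, 1 of 8 subunits where 1.47% of the 12410 genes tested did so. The log2 difference was 0.21 (SE 0.06), a fold of 1.16 with a 95% interval from 1.03 to 1.30, at an unadjusted p of 0.0203 and an adjusted p of 0.872 (limma, Benjamini-Hochberg adjustment). At an unadjusted p under 0.05 this was 1 of 8 subunits beside 2.75% of all genes. The difference stayed between 0.16 and 0.24 when each library in turn was left out, with adjusted p-values of at least 0.169, and without heat shock replicate 1 or 2 the unadjusted p was 0.0548 or 0.0631 (limma). No subunit and no gene was called on this scale, 0% of the genes tested.

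**Figure D2:**
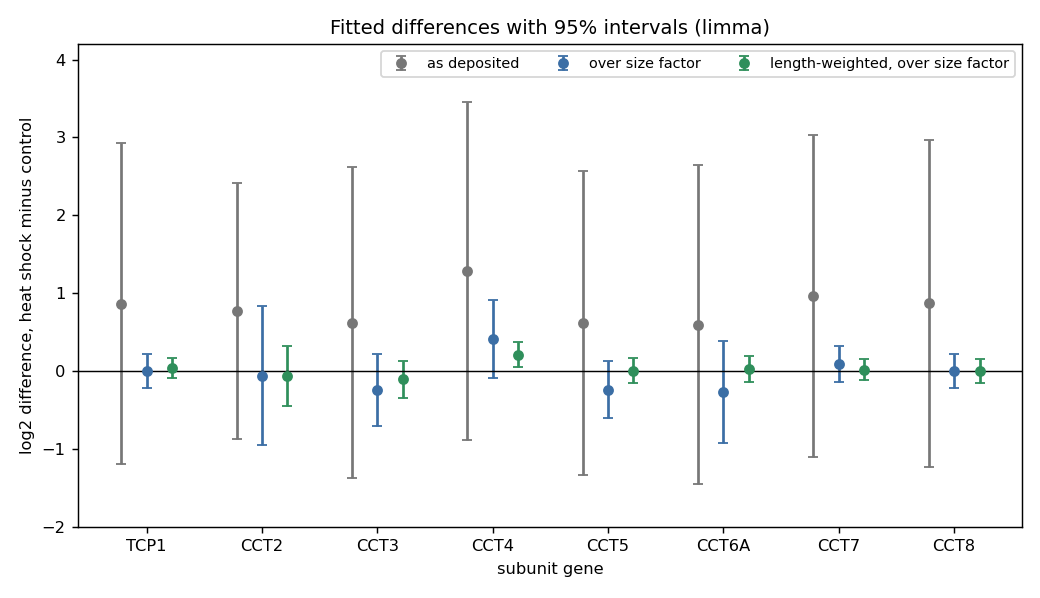
The fitted log2 difference of each subunit gene, heat shock minus control with 3 libraries in each group, with its 95% interval from limma, for the values as deposited (grey), divided by the size factor (blue) and length-weighted over the size factor (green). The grey intervals reach from -1.45 to 3.46 and all include 0, and of the green intervals only that of CCT4 does not include 0.

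The subunits were also compared as proportions of one another, a measure that no library factor can move. Each gene was expressed as a share of the summed value of the 8. On the length-weighted scale the order was CCT4, CCT8, CCT7, CCT6A, TCP1, CCT3, CCT5 and CCT2, and each gene of this order exceeded the next in 6 of 6 libraries. CCT8 and CCT7 were the closest neighbours, at 1.01 to 1.14 times, followed by CCT6A and TCP1 at 1.01 to 1.12 times. The median ratio of CCT8 to CCT7, 1.03, was within the spread of either gene between libraries, and that of CCT6A to TCP1 was 1.08. CCT4 exceeded CCT8 by 1.80 to 2.18 times and CCT5 exceeded CCT2 by 1.77 to 2.43 times. With the plain sum of FPKM, CCT7 exceeded CCT8 in 6 of 6 libraries, at 1.29 to 1.70 times, so the order of these genes depends on how transcripts are summed.

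CCT4 made up 30.5%, 28.3% and 30.5% of the length-weighted sum in the controls and 33.1%, 33.4% and 32.4% in the heat shock libraries. The means were 29.8% ± 1.30 (SD, n = 3) and 33.0% ± 0.509 (SD, n = 3), and the groups did not overlap. An exact permutation test (two-sided) gave p = 0.1, the smallest that 3 libraries against 3 allow. The log2 difference relative to the summed value was 0.15 (SE 0.05), with an unadjusted p of 0.0266 and an adjusted p of 0.775 over all 12410 genes (limma). That put 1 of 8 subunits wholly above the controls, where 0.645% of all genes lay wholly above and 8.03% wholly below. At an unadjusted p under 0.05 it was 1 of 8 beside 3.26% of all genes, and no subunit was called, 0% of the genes tested.

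The other shares overlapped between the groups on the length-weighted scale. CCT8 held 15.1% to 16.5% in the 6 libraries, CCT7 14.2% to 16.0%, CCT6A 10.1% to 11.2% and TCP1 9.68% to 10.4%. CCT3 held 8.09% to 10.2%, CCT5 5.08% to 5.72% and CCT2 2.24% to 3.15%. The share of the rarest subunit message was thus at most 3.15%, against at least 28.3% for the most abundant one. With the plain sum, CCT4 ranged more widely, from 22.2% in control replicate 2 to 39.98% in heat shock replicate 2, and CCT5 lay below all controls in the 3 heat shock libraries (4.55% ± 0.260 against 5.72% ± 0.990, SD, n = 3 each, p = 0.1 by the exact permutation test, two-sided). In the fit relative to the plain sum, no subunit was called, where 0% of the 13130 genes tested were, and none passed an unadjusted p under 0.05 (limma), beside 3.47% of all genes. CCT4 lay wholly above the controls there, where 1.09% of all genes did, and CCT5 wholly below, where 6.65% did.

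**Figure D3:**
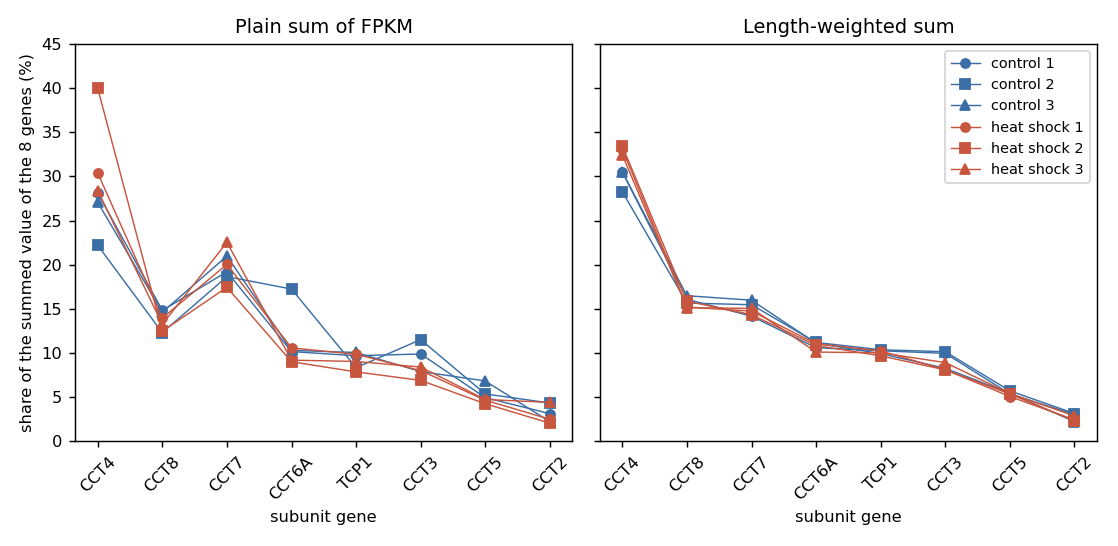
The share of each subunit gene in the summed value of the 8 genes, in percent, for the 3 control libraries (blue) and the 3 heat shock libraries (red), with the plain sum of FPKM on the left and the length-weighted sum on the right. On the right the 6 lines nearly coincide and fall from CCT4 (28.3% to 33.4%) to CCT2 (2.24% to 3.15%), and on the left CCT4 in heat shock replicate 2 and CCT6A in control replicate 2 stand apart.

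The transcripts that carried the FPKM of a gene differed between libraries. The files hold 20 annotated transcripts of the 8 genes, of which 9 were listed at 0 in all libraries and 11 held at least 5% of the FPKM of their gene on average. For the shares of these 11, an exact permutation test between heat shock and control (two-sided) gave p of at least 0.3, where the smallest that this design allows is 0.1.

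CCT6A, TCP1 and CCT7 each have a pair of annotated transcripts that differ by whole exons. The shorter CCT6A transcript, NM_001009186, lacks exon 3 of the longer one, NM_001762, and held 76.7%, 8.66% and 85.5% of the FPKM of the gene in the controls and 82.9%, 90.2% and 73.5% in the heat shock libraries. The longer one held 23.3%, 0% and 14.5% in the controls and 17.1%, 9.83% and 26.5% in the heat shock libraries. In each library the transcript without exon 3 was thus listed above the one with it. The shorter TCP1 transcript, NM_001008897, lacks exon 2 of NM_030752 and held 69.9%, 68.8% and 0% in the controls and 37.9%, 70.8% and 84.0% in the heat shock libraries. In control replicate 3 both TCP1 transcripts were listed at 0, and in heat shock replicate 1 the 95% interval of Cufflinks for the shorter one ran from 0 to 135 FPKM around 45.6 FPKM. Over the leading transcripts of the 8 genes in the 6 libraries the median half-width of these intervals was 6.15% of the value.

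These exons decide which transcript a fragment can come from, so they are shown here as read from GRCh37, the assembly that hg19 names, with the exon in capitals and 10 bases of intron on each side. Both lie wholly in coding sequence by GENCODE release 44. The length of the CCT6A exon, 135 nucleotides, is a multiple of 3, and that of the TCP1 exon, 86 nucleotides, is not. The TCP1 exon is at chr6:160209090-160209175 (minus strand) and the CCT6A exon at chr7:56122062-56122196 (plus strand).
TCP1 exon 2: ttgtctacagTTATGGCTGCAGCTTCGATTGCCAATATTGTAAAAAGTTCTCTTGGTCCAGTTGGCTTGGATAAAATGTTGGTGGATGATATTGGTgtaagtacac
CCT6A exon 3: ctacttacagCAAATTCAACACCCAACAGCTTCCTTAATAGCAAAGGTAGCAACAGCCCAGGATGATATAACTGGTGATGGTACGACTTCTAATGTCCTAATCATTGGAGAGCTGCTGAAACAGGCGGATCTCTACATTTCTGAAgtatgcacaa

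CCT7 had the largest difference between its transcripts. NM_001009570, with 7 exons, lacks exons 2 to 6 of NM_006429, which has 12, and it held 90.3%, 100% and 92.0% of the FPKM of CCT7 in the controls and 92.2%, 100% and 0% in the heat shock libraries. In heat shock replicate 3 it was listed at 0, and an assembled transcript of 5 exons at the 3′ end, listed at 59.8 FPKM, held 92.1%. The longer NM_006429 held at most 9.65% in any library. With annotated transcripts alone CCT7 would therefore have a log2 difference of -0.18 in place of 0.96.

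Assembled transcripts, those that Cufflinks built from the reads beyond the annotation, numbered 12 at the 8 genes, and each gene had at least 1. By library there were 0, 4 and 3 in the controls and 1, 2 and 2 in the heat shock libraries. Of the 12, 10 held the last intron of the gene but not the first, 0 held the first but not the last and 1, at CCT8 in heat shock replicate 2, held both. The one at CCT4 in heat shock replicate 2 held neither. All 12 ended within 300 bases of the annotated 3′ end. The first and last introns are those of the annotated transcript with the most exons. The assembled transcript at TCP1 in heat shock replicate 1 lacked that first intron but began at the annotated 5′ end. Lacking the first intron therefore does not always mean lacking the 5′ end. Over all genes with at least 6 exons, 54.3% to 63.7% of the assembled transcripts in a library held the last intron alone and 13.8% to 18.5% the first alone. The part that unequal coverage along the messages has in the transcript shares was not tested.

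Some assembled transcripts held much or all of the FPKM of their gene. At CCT6A in control replicate 2, a transcript of 3 exons and 1248 nucleotides was listed at 43.1 FPKM and held 91.3% of the FPKM of the gene. At CCT4 in heat shock replicate 2, a transcript of 2 exons and 585 nucleotides, whose 1 intron is not annotated, was listed at 286 FPKM and held 44.9%. At TCP1 in control replicate 3, a transcript of 10 exons held all of the 54.1 FPKM, and at CCT5 in control replicate 3 the annotated transcript was listed at 0 and 2 assembled ones, of 8 and 3 exons, held 25.1% and 74.9%. Counted by length, CCT4 in heat shock replicate 2 stood at 422 FPKM in place of 637.6, and CCT6A in control replicate 2 at 24.1 FPKM in place of 47.2.

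**Figure D4:**
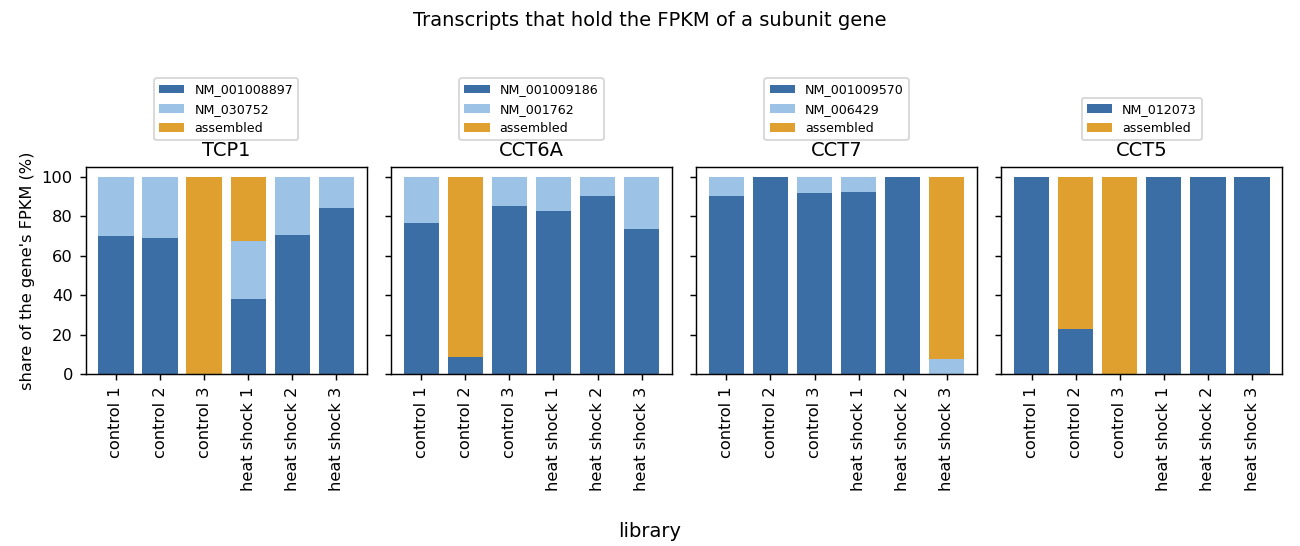
The share of each gene's FPKM, in percent, held by its annotated transcripts (blue shades, with their RefSeq names) and by assembled transcripts (orange) in each of the 6 libraries, for TCP1, CCT6A, CCT7 and CCT5. The assembled share reaches 100% for TCP1 and CCT5 in control replicate 3, 91.3% for CCT6A in control replicate 2 and 92.1% for CCT7 in heat shock replicate 3, and NM_001009570 holds at least 90.3% of CCT7 in the other 5 libraries.

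Transcripts without an annotation that lay inside the bounds of a subunit gene and belonged to no gene were nearly absent. There was 1, at CCT7 in heat shock replicate 3, of a single exon and at 1.16 FPKM, and 0 in the other 5 libraries. Among the 2909 genes averaging 10 FPKM or more whose annotated transcripts lie on 1 chromosome, 29.9% to 44.4% held such a transcript in a library. Intronic fragments below the reporting limits of Cufflinks would not be listed, so this is a count of listed transcripts.

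Genes beside and inside the subunit genes were examined because unstranded reads of overlapping genes cannot be told apart. The TopHat2 options that the study lists beside the defaults include none for strand. Whether the libraries kept strand is not given in the sources used here. SNORA15, a small nucleolar RNA gene within an intron of CCT6A on the same strand, was at 7.50 FPKM in control replicate 1 and 24.7 FPKM in heat shock replicate 1 and was listed at 0 in the other libraries. SNORA20 and SNORA29, within introns of TCP1, were listed at 0 in all 6. ACAT2, which overlaps the 3′ end of TCP1 on the opposite strand, was also listed at 0 in all 6. PSPH, which starts 110 bases from CCT6A on the opposite strand, had 24.2, 6.88 and 14.1 FPKM in the controls and 35.6, 21.7 and 6.20 FPKM after heat shock. MRPL18, 757 bases from TCP1 on the opposite strand, had 11.8, 9.51 and 9.74 FPKM in the controls and 20.8, 48.8 and 9.92 FPKM after heat shock. PSPH and MRPL18 had their highest value as deposited in a heat shock library, and the groups overlapped. Over the size factor, PSPH was highest in control replicate 1 (25.9) and MRPL18 in control replicate 2 (21.9). TSACC, overlapping CCT3 on the opposite strand, had 1.74, 0.974 and 1.77 FPKM in the controls and 4.95, 4.67 and 1.64 FPKM after heat shock. SUMF2, 235 bases from CCT6A on the same strand, had 2.80, 1.51 and 1.97 FPKM and 0, 0 and 1.29 FPKM. SUMF2 thus lay wholly below the controls, where 2.26% of all genes tested did.

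Near-identical copies limit what can be assigned to a gene. GENCODE names 4 pseudogenes after CCT6A, up to 2 after each of the other subunits and 0 after CCT2. CCT6P1 was listed at 4.92, 2.37 and 1.91 FPKM in control libraries and at 0.689, 9.41 and 0.399 FPKM after heat shock, and CCT6P3 at 4.66, 2.08 and 4.67 and at 4.80, 12.3 and 2.19 FPKM. Both were low beside CCT6A in every library, and how reads shared by copies were divided is not given in the sources used here.

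The promoters were searched for heat shock elements, the binding motif of the heat shock factors, which is made of inverted units of GAA. A RefSeq window of 250 bases before to 50 after the start (GRCh38.p14) was found for 7 of the 8 genes, 9 windows in all, and CCT6A had none. The pair GAANNTTC was in 2 of the 9 windows, of TCP1 and CCT2, and in 6.77% of all 35116 windows. CCT2 had windows at different starts. Its pair is counted from the start at the higher coordinate and lies downstream of the other start. The annotated CCT2 transcript that begins further downstream, NM_001198842, was listed at 0 in every library. Which start the CCT2 messages used was not tested. The pair TTCNNGAA was in the window of CCT4 only, and in 7.74% of all windows. Both motifs read the same on either strand and were searched without regard to overlap. A run of 3 units, GAANNTTC with a further GAA after 2 bases, on either strand, was in 0 of the 9 windows and in 0.49% of all. Of the 8 heat-inducible genes used as a check, 6 held GAANNTTC and 2, HSP90AA1 and HSPA8, held the run of 3 units. A match is a description of the sequence and not a binding site. The sites in the subunit windows, with the motif in capitals, are
TCP1, bases -231 to -224 from the start (chr6:159789816-159789843, minus strand): cgtttgaggcGAAGGTTCaacctcttcc
CCT2, bases -89 to -82 (chr12:69585790-69585817, plus strand): ccggagcgaaGAAATTTCtagtgtggga
CCT4, bases 39 to 46 (chr2:61888607-61888628, minus strand): cggcgccgctTTCTGGAAggtt
The windows had a GC content of 57.7% to 70.0%, where the median of all windows was 58.7%. A GC box, GGGCGG, was in the windows of 5 of the 7 genes, CCT4 and CCT5 being without, and in 45.0% of all windows. The letters CCAAT were in those of CCT2, CCT3, CCT8 and TCP1, and in 34.6% of all windows, on either strand in both cases.

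Genes that work with the chaperonin were read from lists chosen by function. Of the 13 prefoldin subunits and co-factors, 12 were tested (PDCL2 was too low), 0 were called and the median log2 difference was 0.83 as deposited and 0.03 over the size factor. Over all 13130 genes tested, 0.0228% were called as deposited and 0% over the size factor, and the medians were 0.45 and -0.21. PFDN5, a prefoldin subunit and the most abundant of the list, had 131.5, 57.4 and 131.4 FPKM in the controls and 490.9, 338.9 and 63.4 FPKM after heat shock. PFDN2, UXT and VBP1, all prefoldin or prefoldin-like subunits, had log2 differences over the size factor of 0.03, -0.11 and 0.16. VBP1 alone of these 4 lay higher in every heat shock library than in every control after division, at 32.3 ± 0.844 against 28.7 ± 1.60 (SD, n = 3 each), with an adjusted p of 0.905 from limma. PFDN1, another prefoldin subunit and named after its values were seen, lay wholly below, 1 of 12 where 5.42% of all genes did. On the length-weighted scale over its size factor the groups overlapped for PFDN1, while VBP1 still lay wholly above. PFDN6, named after its values were seen, passed an unadjusted p under 0.05 as deposited (adjusted p = 0.708 from limma), but was listed at 0 in control replicate 1.

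Of the 19 clients of the chaperonin, 18 were tested (WRAP53 was too low), 0 were called and the median log2 difference was 0.73 as deposited and -0.08 over the size factor. Over all genes tested, 0.0228% and 0% were called on these scales, and the medians were 0.45 and -0.21. ACTG1, cytoplasmic gamma actin, had 314.6, 141.8 and 304.2 FPKM in the controls and 759.3, 739.7 and 159.1 FPKM after heat shock, the pattern of the subunits. TUBA1B, an alpha tubulin, had 394.9, 182.6 and 433.6 FPKM and 1149, 1319 and 206.6 FPKM. After division by the size factor, the log2 differences were 0.03 (SE 0.07) for ACTG1, -0.05 (SE 0.13) for ACTB, 0.23 (SE 0.12) for TUBA1B and -0.03 (SE 0.10) for TUBB, a beta tubulin. None of these was called, and the groups overlapped for each.

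The mitochondrial chaperonin, which folds proteins in a separate compartment, gave a like picture. HSPD1, its ring subunit, had 58.4, 18.7 and 47.4 FPKM in the controls and 108.6, 121.7 and 26.0 FPKM after heat shock. Its log2 difference over the size factor was 0.04 (SE 0.15). HSPE1, its lid, had 158.3, 115.9 and 160.8 FPKM and 379.8, 427.4 and 70.7 FPKM, with a log2 difference over the size factor of -0.22 (SE 0.21). Of 5 genes of CCT-like proteins only MKKS was expressed enough to be tested, with a log2 difference of 0.05 (SE 0.21) over the size factor. BBS10, CCT8L2 and BBS12 were among those too low.

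As deposited, 3 of the 8 heat-inducible genes lay higher in every heat shock library than in every control, where 3.8% of all genes tested did so. Over the size factor 5 of these 8 did, against 1 of 8 chaperonin subunits, 1 of 12 prefoldin genes and 0 of 18 clients, where 1.96% of all genes tested did so. The 5 were DNAJB1, HSPA1A, HSPA1B, HSPA8 and HSPH1. The groups overlapped for HSP90AA1, HSPB1 and BAG3, with log2 differences over the size factor of 0.14 (SE 0.09), 0.28 (SE 0.44) and 0.34 (SE 0.24). DNAJB1 stood at 7.82, 11.2 and 9.59 in the controls and at 56.8, 50.2 and 69.8 after heat shock. HSPA8, the constitutive HSP70, stood at 100.1, 100.2 and 93.6 and at 120.1, 129.0 and 121.2. Here 4 of 8 passed an unadjusted p under 0.05, beside 0.746% of all genes in that direction, and 0 of 8 were called, beside 0% of all genes tested (limma). On the length-weighted scale over its size factor, HSP90AA1 also lay wholly above the controls, where 1.47% of all genes tested did so. It stood there at 72.9, 64.3 and 70.6 in the controls and at 73.7, 75.6 and 79.1 after heat shock. HSPB1 and BAG3 still overlapped on that scale.

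Over the 6 libraries the mean of the 8 subunits on the log2 scale, after division by the size factor, ranged over 0.29. The 5 genes whose pattern was most like it, among the 2937 other genes averaging 10 FPKM or more, were ATXN2L, CCNB2, MPLKIP, FOXM1 and BLVRA, with Pearson's r of 0.976 to 0.985. These r are descriptions over 6 libraries that share the size factors, and as the highest of many they are high by selection. The mean of the subunits and all 5 genes were highest in control replicate 2. There CCT6A, CCT3 and CCT2 stood at 108.8, 72.6 and 27.4 by the plain sum used here. On the length-weighted scale over its size factor they stood at 55.1, 49.9 and 15.5. The part that this way of summing has in the likeness was not tested. Among the subunits themselves, the 28 pairs had r of 0.838 to 0.999 in FPKM as deposited and of 0.978 to 0.999 in length-weighted FPKM, both of which hold the factor common to each library.

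In the table of pooled values, which gives the authors' value for each group over the replicates at a merged locus, all 8 genes were higher after heat shock, by more than between the means of the libraries. The authors' FPKM of CCT4 were 169 and 834 in control and heat shock, those of CCT7 116 and 528, and those of TCP1 50.8 and 229. The folds of the 8 genes were 4.16 for CCT3 and CCT2 up to 4.93 for CCT4, with a median of 4.53, beside a median of 4.32 over the 4181 named loci of at least 5 FPKM in the control column. Between the means of the libraries the folds were 1.78 to 3.06. The authors' heat shock value lay above every single heat shock library for 8 of 8 genes. CCT8 and CCT6A stood furthest from the libraries, with the authors' values of 222 and 1026 FPKM for CCT8 against library means of 63.8 and 136 FPKM, and of 104 and 491 FPKM for CCT6A against 52.2 and 99.8 FPKM. The merged loci of TCP1 and CCT3 extend over the neighbouring genes ACAT2 and TSACC, so their values may not be of the subunit alone.

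**Figure D5:**
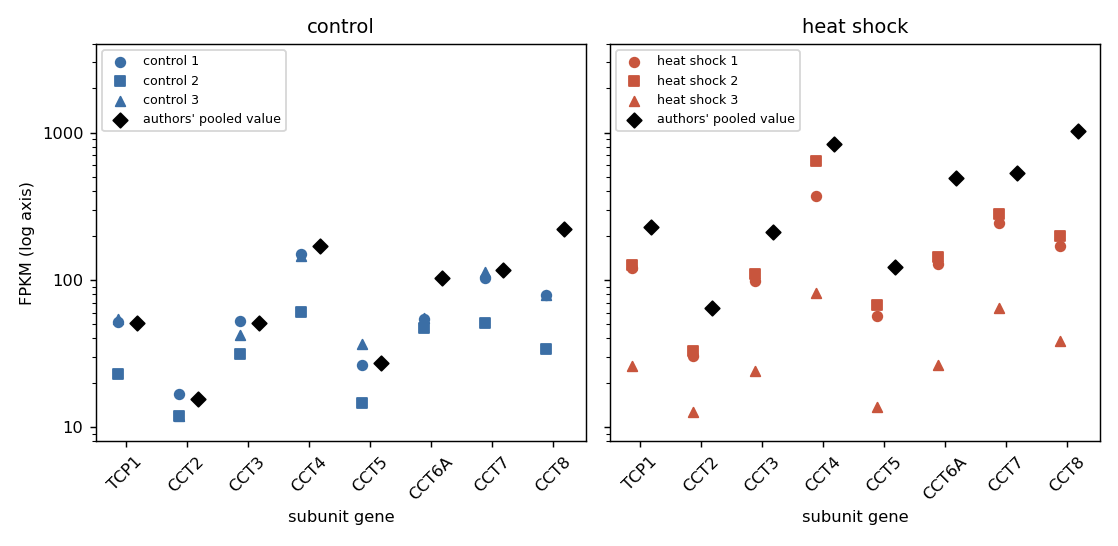
FPKM of each subunit gene (log axis) in the 3 single libraries of a group (coloured points) and the authors' value pooled over the group (black diamonds), control on the left and heat shock on the right. Every black diamond on the right lies above all 3 libraries, and in the control panel those of CCT4, CCT6A, CCT7 and CCT8 do.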

How the data were processed

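RNA was sequenced from 3 control and 3 heat shock libraries of HEK293 cells. Per the labels and the methods of the study, the authors trimmed reads (Trimmomatic 0.3.0, FastQC 0.10.1), mapped them with TopHat2 on the hg19 genome, and ran Cufflinks 2.0.2 guided by gene models of that build. In the deposited transcript files the FPKM of a library stands beside its 95% interval and coverage. The deposited table of merged loci holds the authors' cuffdiff FPKM per group; its fold changes, test statistics, p-values and q-values were not used. The version of cuffdiff and its scaling are not given in the sources used here.

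Transcripts were assigned to genes by RefSeq accession (96.5% of 43536 annotated transcripts). An assembled transcript grouped with several genes went to the only gene with which it shared an intron (2241 of 6765), otherwise to none. The 13130 genes averaging 1 FPKM or more were fitted with limma 3.58.1 (R 4.3.3, trend) on log2(FPKM + 1), 3 libraries against 3, with Benjamini-Hochberg adjustment. Shares were tested with exact permutation tests. The fit was also run on simulated data with known changes, whose recovery is not reported here. Of the genes on the lists, those called and the 4 with the highest mean FPKM are named, beside all of the heat-inducible list, the neighbours and the 5 genes of most like pattern. Members and lists were chosen with earlier results of these data known. The alternatives were other pseudocounts, scalings, minimum FPKM and sums of transcripts, a replicate block and leaving out each library.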

Additional observations from a re-analysis of the deposited data

How the results depend on the processing

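With 3 libraries a group and FPKM without counts, the depth of a value is unknown except in relative terms, and differences within the intervals given could not be detected. The number of subunits called was 0 of 8 under every alternative run. The median log2 difference of the 8 genes was 0.46 to 1.48 when each library was left out in turn, 1.48 being without heat shock replicate 3, and 0.39 and 0.14 with size factors over all genes above 0 and with TPM. The cause of these shifts was not tested. Size factors over abundant genes turned the differences of CCT2, CCT3, CCT5 and CCT6A to -0.063, -0.24, -0.24 and -0.27, with and without the replicate block. TPM turned those of CCT3, CCT5 and CCT6A to -0.072, -0.071 and -0.10, and the length-weighted sum over its size factors those of CCT2 and CCT3 to -0.064 and -0.11. With annotated transcripts alone CCT7 stood at -0.18. Relative to the summed FPKM, annotated transcripts alone gave 1.83 for TCP1, 0.31 for CCT3, 2.27 for CCT5, 0.79 for CCT6A and -1.19 for CCT7, and the length-weighted sum gave -0.046 for CCT7.

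The number of genes called, 3, became 1 with size factors over genes above 0, 1 with TPM, 1 with annotated transcripts alone, 0 with no minimum FPKM, 0 with size factors over abundant genes (block or none) and 0 with the length-weighted sum over its size factors. It was 504 with the p-value unadjusted, and 0 to 6 when each library was left out, 6 being without heat shock replicate 3 and 0 without any 1 of the controls. Leaving out a library turned small differences. Over size factors, TCP1 ranged from -0.027 to 0.023, CCT2 from -0.34 to 0.21, CCT6A from -0.42 to 0.028 and CCT8 from -0.038 to 0.028. On the length-weighted scale, CCT2 ranged from -0.21 to 0.0095, CCT5 from -0.029 to 0.036, CCT6A from -0.012 to 0.080, CCT7 from -0.018 to 0.054 and CCT8 from -0.042 to 0.033. Relative to the summed FPKM, TCP1 ranged from -0.15 to 0.016, CCT2 from -0.44 to 0.0995 and CCT7 from -0.067 to 0.12. The length-weighted sums and the omission of transcripts grouped with several genes were chosen after the values were seen.

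Libraries of the 2 groups share replicate numbers, and no label says that a number marks a shared culture or day. In the absence of such a label the numbers were not taken as pairs. The deviations of same-numbered libraries from their group means correlated at 0.037, -0.33 and -0.38 across genes as deposited. Those of control replicate 2 and heat shock replicate 3 correlated at 0.44. Deviations from a mean of 3 libraries sum to 0 within a group, so these values cannot show or exclude a shared culture or day. With the replicate block, 15 genes were called in place of 3 and 0 of 8 subunits.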
